A study of Mus musculus with 9 samples.

Results

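The 7 genes described here encode the Id inhibitors (Id1, Id2, Id3, Id4) and the E proteins they bind (Tcf3, Tcf4, Tcf12). They were taken by symbol from a table of 54697 genes, and each symbol matched a single row. RNA-seq was done on the mouse myoblast line C2C12, an established line able to form muscle fibres, labelled WT and sampled at day 2 with 3 libraries in each of 3 groups. One group had received butyrate at 750 µM for 48 h, one pentanoate at 750 µM for 48 h, and one was the control, for which the sources used here do not say what was added. All groups were grown in DMEM with fetal bovine serum, and since no label tells whether replicate libraries stem from different cultures, the p-values below rest on a spread between libraries that may be technical.

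E proteins are basic helix-loop-helix transcription factors present in most tissues. They pair with tissue-restricted factors such as MyoD, and the pairs bind the E-box (CANNTG) in muscle genes. Id proteins have the helix-loop-helix but no basic region, so they pair with E proteins and keep them off DNA, and in myoblasts they are known for holding back differentiation. Bone morphogenetic proteins (BMPs), acting through SMAD factors, are known inducers of Id genes. Butyrate is a short-chain fatty acid known as an inhibitor of histone deacetylases, and pentanoate is the straight-chain acid longer by a single carbon.

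Total counts were 15829262 to 19305981 per library, and 14066 genes passed the filter on low counts and were tested. Of the 7 genes, 6 were tested and Id4 was not. All 10 myoblast markers were detected in every group, with summed levels of 1689 to 2108 CPM (read counts scaled to library size) in butyrate libraries, 1945 to 2489 in pentanoate libraries and 1759 to 2507 in control libraries. Markers of other cell types had 0 counts in all libraries for 4 of 12 neuronal genes (Rbfox3, Snap25, Elavl4 and Dcx), 2 of 10 of blood cells (among them Adgre1), 3 of 10 of endothelium (Kdr, Tie1, Cldn5), 2 of 8 of epithelium (Epcam, Esrp1), 2 of 8 of adipocytes (Cidec, Lep) and 1 of 9 of osteoblasts and chondrocytes (Ibsp), and the others were detected. In butyrate, pentanoate and control libraries in that order, the summed level was 38.1 to 39.8, 46.1 to 49.8 and 17.5 to 19.3 CPM for the neuronal list, 2.47 to 3.93, 1.05 to 1.76 and 1.10 to 1.16 CPM for blood, and 11.7 to 19.5, 10.0 to 17.7 and 7.54 to 11.2 CPM for endothelium. It was 14.8 to 26.8, 27.1 to 65.2 and 13.9 to 40.9 CPM for epithelium, and 49.5 to 85.4, 67.2 to 124 and 55.9 to 113 CPM for adipocytes, whose Fabp4 averaged 1.08 CPM with butyrate and 0.160 CPM in control (log2 2.71, edgeR adjusted p = 0.0184). The adipocyte marker Cebpa was lower, at 21.1 CPM with butyrate and 33.3 CPM in control (log2 −0.65, edgeR adjusted p = 0.018). Pparg (log2 −0.05) and Lpl (log2 −0.10) were not called. The osteoblast and chondrocyte sum, mostly Spp1, was 5942 to 7693, 2728 to 2986 and 2222 to 3064 CPM, and that of 8 smooth muscle markers was 2378 to 2865, 3962 to 4625 and 4097 to 5092 CPM, mostly Acta2 (log2 −1.17 for butyrate against control, edgeR adjusted p = 0.000161). In the osteoblast and chondrocyte list Spp1 rose with butyrate (log2 1.48, edgeR adjusted p = 0.000245) and Runx2 fell (log2 −0.37, edgeR adjusted p = 0.0249). With butyrate, the neuronal, blood, endothelial and osteoblast and chondrocyte sums thus lay above those of control and the smooth muscle sum below, without overlap. Single genes without such overlap made up 29.1% of all tested genes. Most of the neuronal sum was Stmn2, at 30.4 CPM with butyrate and 13.7 CPM in control (edgeR adjusted p = 0.000161). In that list Tubb3 was also called (edgeR adjusted p = 0.016), and Nefl and Map2 had lower means with butyrate. The blood sum was mostly Cd68 (edgeR adjusted p = 0.0539) and the endothelial sum mostly Flt1 and Eng (0.291 and 0.515), none of them called. The part of these sums in the results was not tested. Control library 3 stood apart with 3.95% of its counts on mitochondrial genes, against 1.79% to 2.32% in the other 8 libraries, so results are also given without it where that changes the call of a named gene.

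The first 2 promoters below belong to Id2 and Tcf12, the genes called lower with butyrate, and those of Id3 and Tcf3, not called in that comparison, stand beside them. They are the 250 bases before a RefSeq transcription start (GRCm38.p6), read 5′ to 3′ on the gene's strand, with each E-box in capitals. They lie at chr12:25096093-25096342 (minus strand) for Id2, chr9:72111820-72112069 (minus strand) for the first of 3 listed Tcf12 starts, chr4:136143572-136143821 (plus strand) for Id3 and chr10:80433636-80433885 (minus strand) for Tcf3.
Id2: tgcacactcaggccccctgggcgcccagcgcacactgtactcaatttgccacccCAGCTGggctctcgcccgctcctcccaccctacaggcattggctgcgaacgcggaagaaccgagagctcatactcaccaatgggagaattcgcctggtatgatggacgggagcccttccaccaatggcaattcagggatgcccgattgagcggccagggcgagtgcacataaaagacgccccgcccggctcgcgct
Tcf12: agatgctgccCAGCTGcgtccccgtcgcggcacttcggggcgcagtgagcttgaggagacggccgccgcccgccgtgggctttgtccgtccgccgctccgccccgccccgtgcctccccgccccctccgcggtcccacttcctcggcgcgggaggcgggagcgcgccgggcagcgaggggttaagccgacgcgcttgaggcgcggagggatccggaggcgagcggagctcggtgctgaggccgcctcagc
Id3: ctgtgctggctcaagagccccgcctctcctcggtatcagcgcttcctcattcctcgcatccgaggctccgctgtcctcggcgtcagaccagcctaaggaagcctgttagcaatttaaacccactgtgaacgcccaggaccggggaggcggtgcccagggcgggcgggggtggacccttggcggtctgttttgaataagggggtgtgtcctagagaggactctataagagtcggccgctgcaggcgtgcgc
Tcf3: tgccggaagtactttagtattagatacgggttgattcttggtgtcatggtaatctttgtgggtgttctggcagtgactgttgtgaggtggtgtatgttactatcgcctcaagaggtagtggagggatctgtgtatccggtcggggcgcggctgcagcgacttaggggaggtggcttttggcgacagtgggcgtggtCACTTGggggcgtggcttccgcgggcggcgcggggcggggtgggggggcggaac
Id2 and Tcf12 held the same E-box letters, CAGCTG, once each, Tcf3 held CACTTG, and the Id3 window held no CANNTG. At the other 2 Tcf12 starts the window reaching 50 bases past the start held CAAGTG with CACTTG and CATGTG instead, and no CAGCTG. In such longer windows CANNTG was found in 72.3% of 32841 promoters, so its presence is common. The share holding CAGCTG itself was not counted. The Id2 window also held 1 match to GGCGCC, the letters of a BMP response element, and 3 to CCAAT, which 11.9% and 37.4% of promoters hold. The Id4 window, not printed here, held 1 match to GGCGCC and 2 to CCAAT. All motifs were read on both strands, and none of these matches overlapped. RefSeq entries were used for 5 of the 7 genes (Id2, Id3, Id4, Tcf3, Tcf12), not for Id1 and Tcf4.

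Id3 was the Id gene with the most counts and Id4 was close to silent. Id3 had 144, 154 and 150 CPM in butyrate libraries 1 to 3, 180, 212 and 197 CPM in pentanoate libraries and 137, 180 and 153 CPM in control libraries. Id1 had 48.9, 72.6 and 51.6 CPM with butyrate, 38.7, 53.1 and 40.7 CPM with pentanoate and 28.2, 46.0 and 19.8 CPM in control. Id2 had 27.6, 26.7 and 25.9 CPM with butyrate, 38.4, 37.0 and 33.6 CPM with pentanoate and 35.5, 40.0 and 43.6 CPM in control. The butyrate libraries thus lay above control for Id1 and below control for Id2 with no overlap, while for Id3 they lay within the control range. For Id1 the butyrate and pentanoate libraries overlapped, since pentanoate library 2 (53.1 CPM) lay above butyrate libraries 1 and 3.

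Id4 had 1, 1 and 4 counts in butyrate libraries, 2, 2 and 2 in pentanoate libraries and 1, 0 and 0 in control libraries. A count of 0 allows up to 3 counts, which is 0.168 CPM in control library 2 and 0.194 CPM in control library 3. With 6 counts under butyrate and 1 in control, the exact 95% interval of the ratio ran from 0.733 to 278 around 6.04, and with 6 under pentanoate it ran from 0.661 to 251 around 5.45. These intervals cover counting error only, and no difference in Id4 was detectable at this depth.

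The E proteins were at similar levels to one another. Tcf3, whose products are the classic E protein partners of MyoD, had 197, 214 and 187 CPM with butyrate, 216, 254 and 227 CPM with pentanoate and 211, 240 and 158 CPM in control. Tcf4 had 213, 154 and 209 CPM with butyrate, 293, 225 and 236 CPM with pentanoate and 293, 223 and 318 CPM in control. Tcf12, which encodes the E protein HEB, had 199, 165 and 168 CPM with butyrate, 243, 200 and 203 CPM with pentanoate and 257, 212 and 297 CPM in control. All butyrate libraries were below all control libraries for Tcf4 and Tcf12, and the groups overlapped for Tcf3. The 4 panels of Id genes and 3 of E proteins in the plot of levels by library show these values.

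**Figure D1:**
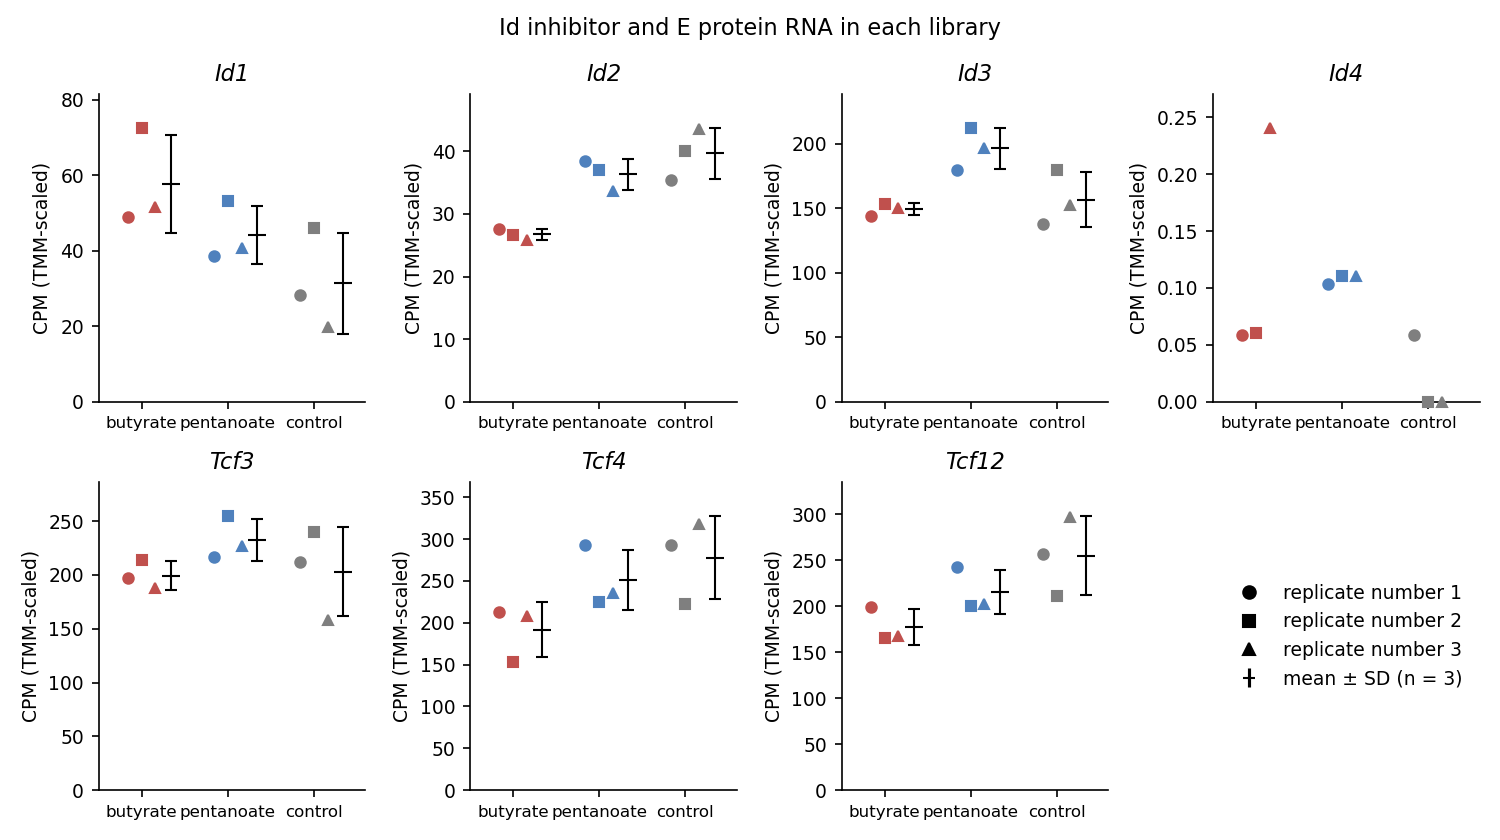
CPM (vertical axis, TMM-scaled, from 0) of each of the 7 genes in the 9 libraries, with butyrate left, pentanoate in the middle and control right. Point shapes give the replicate number and bars the mean ± SD (n = 3), which Id4 lacks with its 0 to 4 counts a library. Butyrate points lie above control for Id1 and below control for Id2, Tcf4 and Tcf12.

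Per kilobase of the deposited gene length, Id3 led in every group, at 83.3 ± 2.62 CPM per kb with butyrate, 110 ± 8.97 with pentanoate and 87.4 ± 12 in control (SD, n = 3 here and below). Tcf3 came next in control at 50.3 ± 10.3 CPM per kb, and with butyrate Tcf3 (49.4 ± 3.26) and Id1 (49.7 ± 11.2) did not differ beyond their spread. Tcf12 and Id2 were neighbours at similar length-scaled levels: 11.4 ± 1.23 and 11.0 ± 0.351 CPM per kb with butyrate, and 16.4 ± 2.75 and 16.3 ± 1.68 CPM per kb in control. Tcf4 was lowest of the tested genes on this scale at 7.01 ± 1.21, 9.17 ± 1.33 and 10.2 ± 1.81 CPM per kb with butyrate, with pentanoate and in control. The order below Id3, and in control the leader too, rests on the length used. The deposited length joins the exons of all isoforms, 27382 bases for Tcf4 and 15529 bases for Tcf12, and with the median length of coding transcripts (1841.5 and 2257 bases) Tcf4 was highest in control at 151 ± 26.9 CPM per kb, ahead of Id3 at 123 ± 16.9 and Tcf12 at 113 ± 18.9. On that scale Id3 stayed ahead of Tcf4 with butyrate (117 ± 3.67 against 104 ± 18) and with pentanoate (154 ± 12.6 against 136 ± 19.7).

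The genes lie on GRCm38 as follows in the deposited table, whose gene length equals the joined exons of all GENCODE M21 transcripts for each of the 7. Id1 (ENSMUSG00000042745) is at chr2:152736251-152737410 on the plus strand, Id2 (ENSMUSG00000020644) at chr12:25093799-25097140 on the minus strand, Id3 (ENSMUSG00000007872) at chr4:136143497-136145755 on the plus strand and Id4 (ENSMUSG00000021379) at chr13:48261228-48266026 on the plus strand. Tcf3 (ENSMUSG00000020167) is at chr10:80409514-80433647 on the minus strand, Tcf4 (ENSMUSG00000053477) at chr18:69343356-69689079 on the plus strand and Tcf12 (ENSMUSG00000032228) at chr9:71842688-72111871 on the minus strand. Reads shared with other genes could touch few of them. Id2 resembled a pseudogene, Gm6175, over 380 bases at 91.8% identity, and Gm6175 had 0 counts. Tcf12 spans the pseudogene Rpl15-ps2 on the opposite strand, which had 3838 counts over the 9 libraries against 33701 for Tcf12, with the strand setting of the counting not given in the sources used here.

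In butyrate-treated cells against control cells, the RNAs of the inhibitor Id2 and of the E protein Tcf12 fell. By edgeR's quasi-likelihood test, 2 of the 6 tested genes were called at an adjusted p under 0.05, both lower, where 11.4% of all 14066 tested genes were called (6.43% higher and 4.95% lower). Id2 averaged 26.7 ± 0.856 CPM with butyrate and 39.7 ± 4.08 CPM in control, a fold of 0.674 (95% interval 0.575 to 0.790) and a log2 change of −0.57 (SE 0.10, edgeR adjusted p = 0.00627). It was lower by 0.36, 0.58 and 0.75 on the log2 scale between libraries numbered 1, 2 and 3, and it kept the call in all 17 alternative settings. Fewer cells of a type and less RNA per cell cannot be told apart in such bulk samples.

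Tcf12 averaged 177 ± 19.1 CPM with butyrate and 255 ± 42.7 CPM in control, a log2 change of −0.52 (SE 0.14, edgeR adjusted p = 0.0314). Its call was less stable than that of Id2, since it held in 11 of 17 settings. The edgeR adjusted p was 0.0504 without control library 3, 0.0839 without control library 1, 0.129 and 0.125 without butyrate libraries 2 and 3, 0.0688 with butyrate and control libraries alone and 0.0506 with upper-quartile scaling. The log2 change without control library 3 was −0.39.

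Id1 and Tcf4 had changes of like or larger size that missed the threshold. Id1 averaged 57.7 ± 13.0 CPM with butyrate and 31.3 ± 13.4 CPM in control, a log2 difference of 0.88 with a 95% interval of 0.29 to 1.47 (edgeR adjusted p = 0.0607). Tcf4 averaged 192 ± 33.1 CPM with butyrate and 278 ± 49.5 CPM in control, a log2 difference of −0.53 with an interval of −0.90 to −0.17 (edgeR adjusted p = 0.063). Both were called once the replicate number entered the fit as a block, Id1 at 0.92 (SE 0.14, edgeR adjusted p = 0.00186) and Tcf4 at −0.54 (SE 0.09, edgeR adjusted p = 0.00359). Both were also called by DESeq2 without the block (DESeq2 adjusted p = 0.00899 for Id1 and 0.0262 for Tcf4). Each was called in 5 of 17 alternative settings. With that block 4 of the 6 genes were called, 1 higher and 3 lower, against 20.7% of all tested genes (10.8% higher and 9.95% lower). In the same 4 genes the 3 butyrate and 3 control libraries did not overlap, which was so for 29.1% of all tested genes (14.1% higher and 14.9% lower).

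Control library 3 weighed on the size of the Id1 difference. It had the lowest Id1 of the controls, and without it the log2 difference was 0.65 (edgeR adjusted p = 0.115), while without control library 2, the highest of the controls, it was 1.27 (edgeR adjusted p = 0.00621). For Tcf4 the values were −0.42 (edgeR adjusted p = 0.154) without control library 3, its highest control, and an edgeR adjusted p of 0.021 without control library 2, its lowest.

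Id3 and Tcf3 showed no difference that these libraries could resolve. Id3 averaged 149 ± 4.69 CPM with butyrate and 157 ± 21.5 CPM in control, with a log2 interval of −0.31 to 0.17 (edgeR adjusted p = 0.73). Tcf3 averaged 199 ± 13.2 CPM with butyrate and 203 ± 41.5 CPM in control, with a log2 interval of −0.33 to 0.28 (edgeR adjusted p = 0.932). The Tcf3 difference of −0.03 changed sign to 0.03 with upper-quartile scaling.

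**Figure D2:**
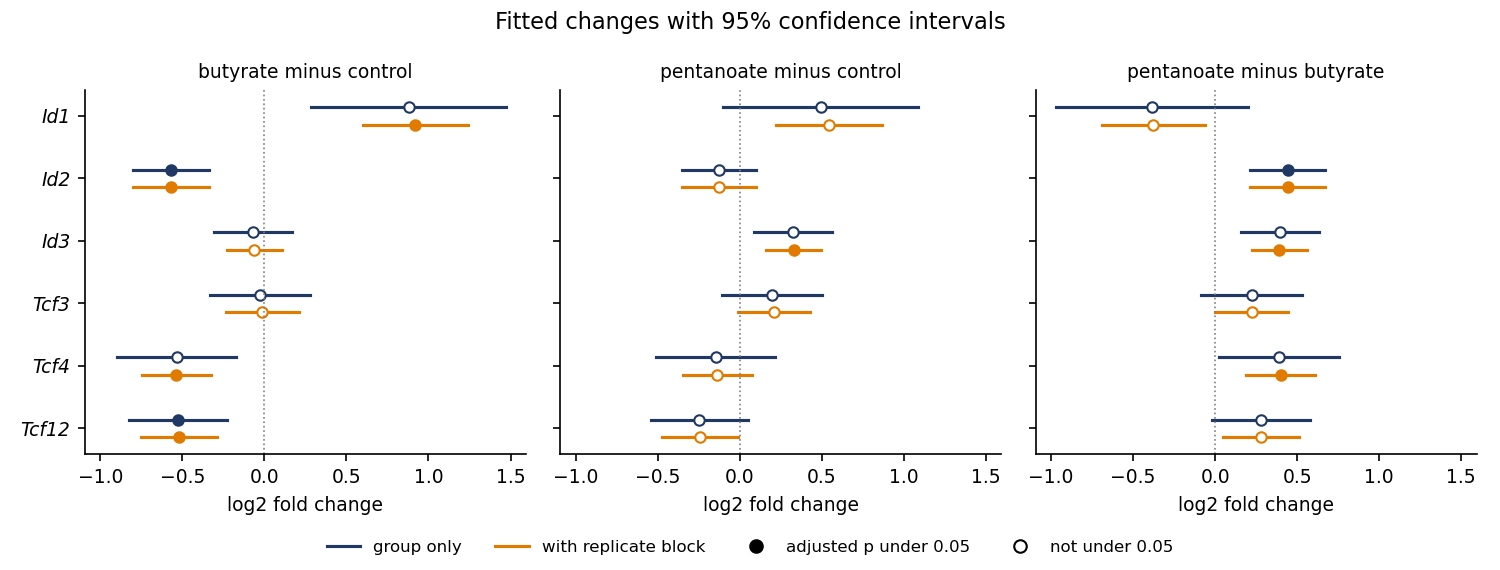
Fitted log2 fold changes (horizontal axis) of the 6 tested genes in the 3 comparisons, with 95% confidence intervals as lines. Dark lines are the fit on group alone, orange lines the fit blocked by replicate number, and filled points have an adjusted p under 0.05. Id2 is filled in both fits for butyrate minus control (−0.57) and for pentanoate minus butyrate (0.44), and no gene is filled in the dark fit for pentanoate minus control.

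In pentanoate-treated cells against control cells, none of the 6 genes was called by edgeR or by DESeq2, where edgeR called 0.803% of all tested genes (0.782% higher and 0.0213% lower). One of the 6, Id3, had an unadjusted edgeR p under 0.05. Id3 averaged 196 ± 16.1 CPM with pentanoate and 157 ± 21.5 CPM in control, a log2 difference of 0.33 with an interval of 0.09 to 0.56 (edgeR adjusted p = 0.236). Its pentanoate and control libraries just met without overlap, at 180 CPM in pentanoate library 1 and 180 CPM in control library 2, and such separation was found in 18.5% of all tested genes (9.38% higher and 9.12% lower). With the replicate block Id3 was called higher at 0.33 (SE 0.07, edgeR adjusted p = 0.0435), where 3.65% of tested genes were called (3.01% higher and 0.647% lower).

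Id1 averaged 44.1 ± 7.79 CPM with pentanoate, between butyrate and control, and its log2 difference from control was 0.49 with an interval of −0.10 to 1.08 (edgeR adjusted p = 0.442). Id2, at 36.3 ± 2.44 CPM with pentanoate, differed by −0.13 on the log2 scale with an interval of −0.35 to 0.10 (edgeR adjusted p = 0.596). A fall in Id2 as large as the fitted one under butyrate thus lay outside the interval for pentanoate. Tcf3 (233 ± 19.8 CPM with pentanoate), Tcf4 (251 ± 36.3) and Tcf12 (215 ± 24.0) had log2 intervals of −0.11 to 0.50, −0.51 to 0.22 and −0.54 to 0.05. The interval of Tcf12 reaches the size fitted for butyrate.

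Butyrate and pentanoate were given at the same dose and time, so their groups can be compared directly. Between pentanoate-treated and butyrate-treated cells, Id2 was higher with pentanoate, at 36.3 ± 2.44 CPM against 26.7 ± 0.856 CPM with butyrate, a fold of 1.36 (95% interval 1.16 to 1.59, edgeR adjusted p = 0.0456). It was the 1 gene of the 6 called, where 3.42% of all tested genes were called (1.81% higher and 1.61% lower). The Id2 call held in 8 of 17 settings. It was lost with upper-quartile scaling (0.0572), without any 1 of the 6 butyrate and pentanoate libraries (edgeR adjusted p = 0.0909 to 0.202), and without control library 1 (0.0532) or 2 (0.0501), while the fitted log2 change was 0.44.

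With the replicate block 3 of the 6 genes were called, all higher with pentanoate, where 10.5% of all tested genes were called (6.12% higher and 4.42% lower). They were Id2, Id3 and Tcf4. Id3 differed by 0.39 on the log2 scale (interval 0.16 to 0.63), with an edgeR adjusted p of 0.0755 without the block and 0.0102 with it. Without the block Id3 was also called on omission of control library 3 (0.0249) or 2 (0.0428), with no filter (0.0435) and with only the 2 groups compared (0.0101). DESeq2 called Id3 too (DESeq2 adjusted p = 0.0275), and its call held in 7 of 17 settings. Tcf4 differed by 0.39 (interval 0.03 to 0.75), with an edgeR adjusted p of 0.251 without the block and 0.0263 with it. The other 3 genes were not called in either fit, and their log2 intervals were −0.97 to 0.20 for Id1, −0.08 to 0.53 for Tcf3 and −0.02 to 0.58 for Tcf12. Between libraries of the same number, Tcf12 was higher with pentanoate by 0.28, 0.28 and 0.27, and Id1 was lower by 0.34, 0.45 and 0.34. The pentanoate and butyrate libraries did not overlap for 5 of the 6 genes, all but Id1 and all higher with pentanoate, which was so for 30.8% of all tested genes (15.7% higher and 15.1% lower).

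**Figure D3:**
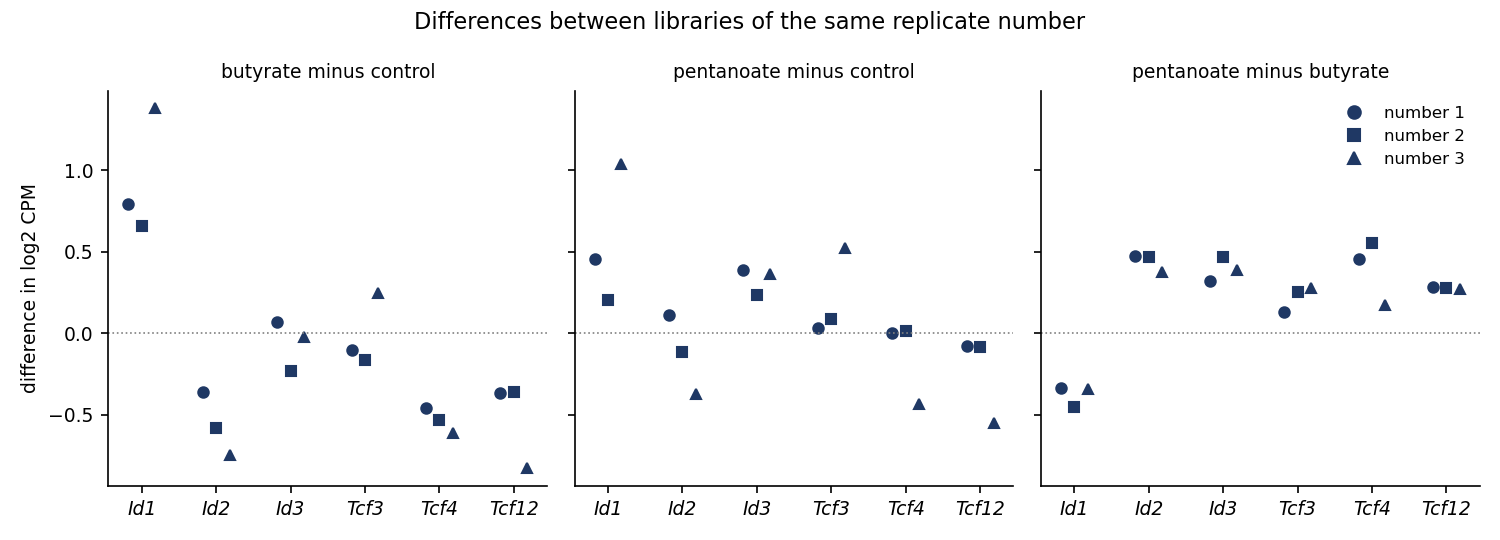
Differences in log2 CPM (vertical axis) between libraries of the same replicate number, for the 6 tested genes in each comparison. Each point is 1 pair of libraries. In pentanoate minus butyrate all 3 points lie above 0 for every gene but Id1, whose 3 points lie below 0, and number 3 gives the highest Id1 point in both comparisons with control.

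The libraries numbered 2 differed from the others in the same direction in all 3 groups for most of these genes. Number 2 was the highest library of its group in butyrate, pentanoate and control for Id1, Id3 and Tcf3, and the lowest in all 3 for Tcf4 and Tcf12. This held for 5 of the 6 genes, against 26.5% of all tested genes (3731 of 14066). Id2 had no number that was highest or lowest throughout. The 6 genes share libraries, so this is a description and not a test. What the numbers stand for is not given in the labels.

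Within the Id genes, butyrate went with a different make-up of the summed CPM. Id1 made up 22.1% to 28.7% of it in butyrate libraries, 15.0% to 17.6% in pentanoate libraries and 9.15% to 17.3% in control libraries. Id2 made up 10.6% to 12.5% with butyrate, 12.2% to 14.9% with pentanoate and 15.0% to 20.2% in control. Id3 remained the main Id RNA at 60.7% to 65.8% with butyrate, 70.0% to 72.6% with pentanoate and 67.7% to 70.7% in control. No test was made of these shares, which follow from the levels above.

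The summed E protein level was 532 to 610 CPM in butyrate libraries, 665 to 752 CPM in pentanoate libraries and 674 to 773 CPM in control libraries, so all butyrate libraries lay below all others. The summed Id level was 221 to 253 CPM with butyrate, 257 to 302 CPM with pentanoate and 201 to 266 CPM in control, with overlap between butyrate and control. The ratio of Id to E protein RNA per kilobase of deposited length was 1.93, 2.30 and 2.14 in butyrate libraries, 1.87, 2.13 and 2.04 in pentanoate libraries and 1.45, 1.93 and 1.72 in control libraries. Its group means were 2.13 ± 0.188, 2.01 ± 0.131 and 1.70 ± 0.240, and butyrate library 1 and control library 2 had the same ratio to 3 digits. In CPM with no length scaling the ratio was 0.362 to 0.475 with butyrate, 0.342 to 0.444 with pentanoate and 0.264 to 0.394 in control, which overlap. Whether Id RNA exceeds E protein RNA depends on the length used, and the ratio gets no p because it is a score over chosen genes.

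Around these genes, the tissue-restricted factors that pair with E proteins moved unevenly with butyrate. Of 34 listed, 8 were tested, and 1 rose and 2 fell, with a median log2 change of −0.11 beside −0.02 over all tested genes, of which 11.4% were called. Only 1 of the 8 was called without butyrate library 2 or 3 or control library 1. Over all tested genes 1601 were called, and 753 to 2285 on omission of 1 library. Myod1, the factor that commits cells to muscle, averaged 45.5 ± 10.1 CPM with butyrate and 84.3 ± 13.1 CPM in control (log2 −0.89, SE 0.17, edgeR adjusted p = 0.00828). Myf5, an early myogenic factor, averaged 44.3 ± 2.43 CPM with butyrate and 29.8 ± 6.65 CPM in control, a rise of 0.57 on the log2 scale (edgeR adjusted p = 0.0279), a call lost without any 1 of the butyrate libraries or without control library 1 or 2 (0.0552 to 0.094) and with butyrate and control libraries alone (0.0638). Myog, which drives terminal differentiation, was at 0.573 CPM with butyrate and 3.93 CPM in control (log2 −2.75, edgeR adjusted p = 0.0366), and lost the call without butyrate library 2 or 3, control library 1 or 3 or pentanoate library 3 (0.0582 to 0.131) or with no filter (0.187). Twist1, an inhibitor in the same family, had 0 counts in all 9 libraries, and Msc had 0 or 1.

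Other inhibitors of the myogenic factors went both ways with butyrate: of 22 listed, 19 were tested, 3 rose and 2 fell, and the median was −0.24. The share called over all tested genes was 11.4%. With the replicate block 3 rose and 7 fell, where 20.7% of all tested genes were called. Without butyrate library 2 or 3 or control library 1, 3 in all were called. Omission of 1 library gave 753 to 2285 calls over all tested genes, against 1601 with all libraries. Mdfi and Mdfic, relatives that bind myogenic factors, parted. Mdfi had 1.17, 1.75 and 2.17 CPM with butyrate and 0.466, 0.559 and 0.454 CPM in control (log2 1.77, edgeR adjusted p = 0.0113, and 0.0507 without butyrate library 3). Mdfic had 69.2, 62.7 and 65.3 CPM with butyrate and 103, 90.5 and 109 CPM in control (log2 −0.62, edgeR adjusted p = 0.0027). Ccnd1, the G1 cyclin that can restrain MyoD, averaged 436 CPM with butyrate and 212 CPM in control (log2 1.04, edgeR adjusted p = 0.00427), and Hdac1, a deacetylase that binds MyoD, rose by 0.43 (edgeR adjusted p = 0.015, lost without butyrate library 2 at 0.0697 or control library 1 at 0.059). Of 14 tested E protein coregulators and turnover factors among 19 listed, 0 were called by edgeR, with 5 at an unadjusted p under 0.05 and 2 called by DESeq2, and with the replicate block 1 was higher and 2 lower. The shares of all tested genes at an unadjusted p under 0.05 and by DESeq2 are not given, so those counts have no background.

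In the BMP and SMAD pathway, 33 of 41 listed genes were tested, and with butyrate 3 rose and 4 fell, with a median log2 change of −0.03 (4 higher and 8 lower with the replicate block), where 11.4% of all tested genes were called (20.7% with the block). Without butyrate library 2, butyrate library 3 or control library 1 the calls numbered 3, 4 and 4. Omission of 1 library gave 753 to 2285 calls over all tested genes, against 1601 with all libraries. The secreted BMP antagonist Grem1 had 242, 312 and 295 CPM with butyrate and 127, 158 and 159 CPM in control (log2 0.93, SE 0.14, edgeR adjusted p = 0.00265). Chrd, another antagonist, averaged 11.0 ± 0.357 CPM with butyrate and 5.95 ± 1.40 CPM in control (log2 0.89, edgeR adjusted p = 0.00839), and the receptor gene Acvrl1 averaged 2.83 ± 0.512 and 0.727 ± 0.296 CPM (log2 1.97, edgeR adjusted p = 0.00315). Fstl1, a secreted follistatin relative, averaged 883 ± 88.7 CPM with butyrate and 1357 ± 225 CPM in control (log2 −0.62, edgeR adjusted p = 0.0106, and 0.0557 without butyrate library 2). The other 3 that fell were the receptor genes Acvr1 and Acvr2a and the antagonist gene Chrdl1, so called antagonists and receptors went both ways. These 3 are named to complete the count and were chosen after their values were seen.

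Unlike the receptor genes Acvrl1, Acvr1 and Acvr2a above, Bmp4, Bmpr1a and the SMAD genes named whatever their result were not called with butyrate. Their log2 differences were 0.07 for Bmp4, −0.34 for the receptor gene Bmpr1a, −0.10 for Smad1, −0.27 for Smad5, 0.03 for the inhibitory Smad6 and 0.11 for the inhibitory Smad7, with edgeR adjusted p-values of 0.193 to 0.885. For the list counts that follow, the share called over all tested genes was 11.4%, and 20.7% with the replicate block. Of 12 tested BMP-SMAD target genes other than Id genes among 14 listed, 1 rose and 0 fell, with a median log2 change of 0.08 (2 higher and 1 lower with the replicate block). The one called, Gata3, averaged 9.65 ± 1.12 CPM with butyrate and 3.53 ± 0.639 CPM in control (log2 1.45, SE 0.19, edgeR adjusted p = 0.00109). Hey1, which both this list and that of other inhibitors hold, differed by 0.43 (edgeR adjusted p = 0.631). Of 14 tested Pax, growth factor and early response regulators among 17 listed, 1 rose and 0 fell, and that gene was Klf4 (log2 0.54, edgeR adjusted p = 0.0379, lost without butyrate library 2 or 3 or any pentanoate library at 0.0546 to 0.14, and with butyrate and control libraries alone at 0.095), while with the replicate block 1 was higher and 3 lower.

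Of the known targets of MyoD with E proteins, 25 of 30 listed were tested, and with butyrate 1 rose and 11 fell, where 11.4% of all tested genes were called. The median log2 change was −0.87 beside −0.02 over all tested genes. With the replicate block 1 was higher and 16 lower, where 20.7% of all tested genes were called. The count varied with single libraries: in place of 12 it was 2 without butyrate library 2, 3 without butyrate library 3 and 5 without control library 1. It was 7 with no filter or with butyrate and control libraries alone, and 6 among genes with a mean of at least 5 CPM. Over all tested genes 1601 were called, and 753 to 2285 on omission of 1 library. Acta1, skeletal muscle actin, fell to 1.85 ± 0.456 CPM with butyrate, against 11.2 ± 0.857 CPM in control (log2 −2.59, edgeR adjusted p = 0.000161). Mymk, the fusion protein gene, fell to 0.575 ± 0.329 CPM, against 4.13 ± 1.46 CPM (log2 −2.82, edgeR adjusted p = 0.00201). Chrna1, the acetylcholine receptor subunit, fell to 134 ± 36.0 CPM, against 263 ± 47.2 CPM (log2 −0.97, edgeR adjusted p = 0.0155), a call lost without butyrate library 2 (0.0778) or 3 (0.0752), without control library 1 (0.0644) and with no filter (0.0817). These genes fell in the libraries where Myod1, Tcf12 and Id2 were lower, and the link between them was not tested.

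**Figure D4:**
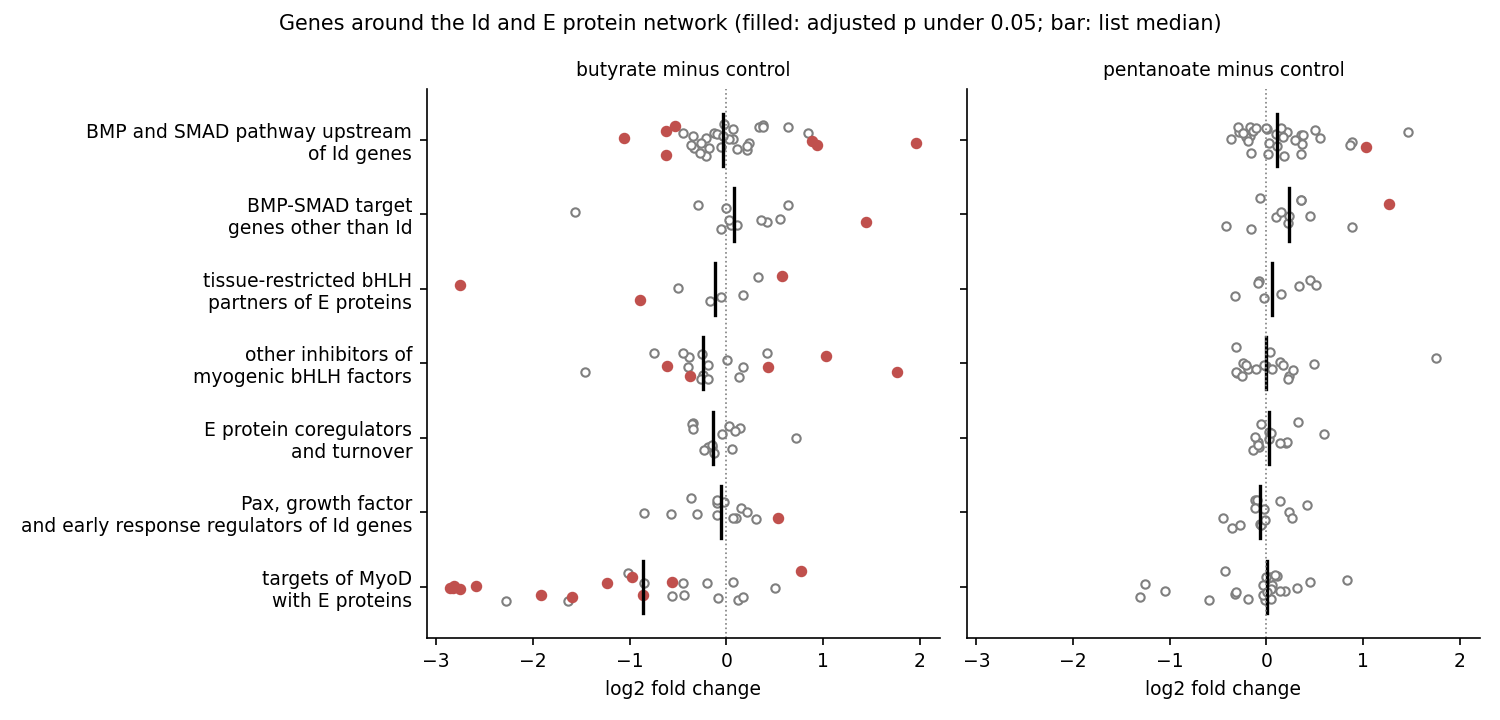
Log2 fold changes (horizontal axis) of the tested genes of 7 lists around the Id and E protein network, for butyrate minus control on the left and pentanoate minus control on the right. Each point is a gene, filled where its adjusted p is under 0.05, and the bar is the list median. The targets of MyoD with E proteins have a median of −0.87 with butyrate and 0.00 with pentanoate.

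With pentanoate against control, Chrd and Gata3 were the 2 genes called in these 7 lists. Chrd averaged 12.2 ± 0.852 CPM with pentanoate and 5.95 ± 1.40 CPM in control (log2 1.03, edgeR adjusted p = 0.0228), a call lost without any 1 butyrate or pentanoate library or control library 2 (0.0523 to 0.108) and with pentanoate and control libraries alone (0.117). Gata3 averaged 8.49 ± 1.21 CPM with pentanoate and 3.53 ± 0.639 CPM in control (log2 1.27, edgeR adjusted p = 0.0126), lost without control library 1 or pentanoate library 2 or 3 (0.0575 to 0.06) and with pentanoate and control libraries alone (0.0692). The BMP and SMAD list had 1 gene higher (Chrd), with 6 at an unadjusted p under 0.05 and 2 called by DESeq2, and 4 with the replicate block. Smad6 differed by 0.36 on the log2 scale (edgeR adjusted p = 0.133, with block 0.0469) and Bmp4 by 0.37 (0.175, with block 0.0561). The list of BMP-SMAD targets likewise had 1 gene higher (Gata3), with 3 at an unadjusted p under 0.05 and 1 called by DESeq2. No gene was called by edgeR among the tissue-restricted partners (2 at an unadjusted p under 0.05, 0 by DESeq2), the other inhibitors (6 and 1), the coregulators (4 and 0) or the Pax, growth factor and early response regulators (1 and 0). With the replicate block 2 of the other inhibitors and 2 of the BMP-SMAD targets were higher. Over all tested genes edgeR called 0.803%, and 3.65% with the block. The share of all tested genes at an unadjusted p under 0.05 was not taken, so those counts have no background. The number of all genes called by DESeq2 is given in the last section. None of the 25 MyoD and E protein targets was called by edgeR either, with 2 at an unadjusted p under 0.05 and 1 called by DESeq2. Myod1 averaged 80.1 ± 9.84 CPM with pentanoate, a log2 difference from control of −0.07 (edgeR adjusted p = 0.874), Myf5 differed by 0.34 (0.341) and Myog by −0.33 (0.842). Without control library 3 Myf5 was called higher at 0.54 (edgeR adjusted p = 0.0348).

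Between pentanoate and butyrate, 3 of the 25 MyoD and E protein targets were higher with pentanoate and 0 lower, with a median log2 difference of 0.78, and with the replicate block 14 were higher and 1 lower. Called shares over all tested genes were 3.42% and 10.5%. Without control library 3 the list had 7 called, and without butyrate library 1 it had 5. Over all tested genes 481 were called, and 75 to 1469 on omission of 1 library. Acta1 averaged 8.32 ± 1.70 CPM with pentanoate and 1.85 ± 0.456 CPM with butyrate (log2 2.16, edgeR adjusted p = 0.00197). Mymk differed by 2.82 (edgeR adjusted p = 0.0073) and Musk, the receptor kinase of the neuromuscular synapse, by 0.65 (0.0204), the Musk call being lost without any 1 of the butyrate and pentanoate libraries (0.0546 to 0.112). Myod1 was higher with pentanoate at 80.1 ± 9.84 CPM against 45.5 ± 10.1 CPM with butyrate (log2 0.82, edgeR adjusted p = 0.0304, with block 0.000906), though the call without the block was lost in 6 of the 9 omissions of a library (0.0518 to 0.134). Crebbp, an acetyltransferase that assists E proteins, averaged 90.3 ± 2.23 CPM with pentanoate and 68.9 ± 4.92 CPM with butyrate (log2 0.39, edgeR adjusted p = 0.0347, likewise lost in 6 omissions, 0.0598 to 0.199). Myod1 and Crebbp were the 1 gene called in each of their lists. Myog was called higher with pentanoate only with the replicate block (log2 2.44, edgeR adjusted p = 0.000548) or by DESeq2 (log2 2.43, adjusted p = 0.00814). No gene of the other inhibitors (4 at an unadjusted p under 0.05, 2 called by DESeq2), of the BMP and SMAD pathway (10 and 3), of its targets (3 and 1) or of the Pax, growth factor and early response regulators (1 and 1) was called by edgeR. The share of all tested genes at an unadjusted p under 0.05 was not taken, so those counts have no background. For DESeq2 the number of all genes called is given in the last section. With the replicate block the counts higher and lower with pentanoate were 3 and 0 for the tissue-restricted partners, 4 and 1 for the other inhibitors, 2 and 0 for the coregulators, 4 and 1 for the BMP and SMAD pathway, 2 and 0 for its targets and 1 and 2 for the Pax, growth factor and early response regulators. Without control library 3 the BMP and SMAD pathway had 7 called, where omission of 1 library gave 75 to 1469 calls over all tested genes. Without control library 3 Smad6 (log2 0.33) had an edgeR adjusted p of 0.0301, against 0.0876 with all libraries, and Bmp4 (log2 0.29) 0.0414, against 0.178. With all libraries and the replicate block Smad6 was called as well (log2 0.33, edgeR adjusted p = 0.0334).

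The patterns closest to those of the 2 genes that fell with butyrate were looked for among 10094 protein-coding genes, by the root-mean-square difference of centred log2 CPM over the 9 libraries. Plp2 (0.0718) and Bcl2 (0.0730) were closest to Id2, and their mean levels were 126 and 10.3 CPM with butyrate, 168 and 14.1 CPM with pentanoate, and 185 and 14.3 CPM in control. Parp4 (0.0505) and Zfp358 (0.0545) were closest to Tcf12, at 33.0 and 26.0 CPM with butyrate, 42.0 and 33.4 CPM with pentanoate, and 46.5 and 39.0 CPM in control. All 4 had the lowest mean with butyrate and the highest in control, which the choice by likeness fixes.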

How the data were processed

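The authors deposited raw counts per gene with symbols, Ensembl identifiers, lengths and coordinates. Library totals differ, as raw counts do. Trizol was used for RNA and a SMARTER mRNA kit for the libraries, per the labels' protocols. The build was GRCm38 (mm10), per the submitters' processing notes. The aligner, counting program and strand setting were not given in the sources used here. The 165 lines without an Ensembl identifier were kept.

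Counts were used as deposited, filtered by filterByExpr and scaled by TMM. The quasi-likelihood test of edgeR (robust glmQLFit) was fitted to all 9 libraries with the group as the sole factor (6 residual degrees of freedom). Benjamini-Hochberg adjustment ran over all 14066 genes tested, and genes were called at an adjusted p under 0.05. The common biological coefficient of variation was 14.4%. Standard errors were derived from the log2 change and its F statistic (change over root F), and intervals from these and the t distribution, so both are approximate. Levels are CPM on TMM-scaled library sizes. Fits ran in edgeR 4.0.16 and DESeq2 1.42.0 (with limma 3.58.1) under R 4.3.3, and plots in matplotlib 3.10.9 with pandas 2.3.3 under Python 3.11.15. The test was tried on simulated data.

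Replicate numbers come from the labels, and by a criterion of r over 0.1 they paired the libraries: deviations from group means correlated at 0.2009 to 0.4135 over genes in the 9 same-numbered pairs and at −0.3316 to 0.01329 in the 18 others. A fit with the number as a block is given beside results whose call it changes. Members and gene lists were chosen with earlier results of these data known. From each list the text names called genes whose mean reached 1 CPM in either group, at most the 4 of smallest p per list and comparison. It also names 12 regulators whatever their result for butyrate against control, and part of them in the other comparisons. For each called gene of the 7, the closest pair of protein-coding genes with a mean of at least 5 CPM was taken (log2 CPM, prior count 2). Transcript lengths and overlapping genes came from GENCODE M21, and a near copy needed 90% identity over 200 bases. Alternatives were 2 other scalings, DESeq2, 2 other filters, a fit on 2 groups, the block and the omission of each library.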

Additional observations from a re-analysis of the deposited data

How the results depend on the processing

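Over 17 alternatives for each of the 6 tested genes and 3 comparisons, 260 values kept direction and side of the threshold, 26 gained a call, 15 lost one and 5 changed sign. All changes of sign were in butyrate minus control, for Tcf3 (0.026 with upper-quartile scaling, −0.17 to 0.12 without one library) and Id3 (−0.15 to 0.051 without one library). The members called in butyrate minus control, pentanoate minus control and pentanoate minus butyrate numbered 4, 1 and 3 with the replicate block. They were 4 with DESeq2 and 1 with only the 2 groups compared for butyrate minus control, and for pentanoate minus butyrate 0 with upper-quartile scaling, 2 with DESeq2, 2 with no filter and 2 with only the 2 groups. Leaving out one library gave 1 to 4, 0 to 0 and 0 to 2. Over all genes, 1601, 113 and 481 calls became 2916, 514 and 1483 with the replicate block, and 1004, 25 and 1365 with only the 2 groups. DESeq2 called 324 for pentanoate minus control and 884 for pentanoate minus butyrate, no filter gave 278 for pentanoate minus control, and a mean of at least 5 CPM gave 1023 for butyrate minus control and 319 for pentanoate minus butyrate. Leaving out one library gave 753 to 2285, 27 to 139 and 75 to 1469. Upper-quartile scaling moved the share of calls that were higher to 68.8% for butyrate minus control, against 56.5% with TMM, and to 41.1% for pentanoate minus butyrate, against 53.0% with TMM. The replicate block without control library 3, added after seeing the data and with 3 residual degrees of freedom, called 5, 2 and 6 members and 4830, 1759 and 4632 genes. The Id to E protein ratio was 0.414 with butyrate, 0.398 with pentanoate and 0.313 in control in CPM, and 0.769, 0.720 and 0.556 with transcript lengths, an alternative also chosen after seeing the data, so it exceeds 1 with the deposited length alone. Without one library of the group it was 2.04 to 2.22, 1.96 to 2.09 and 1.59 to 1.82. Among listed genes, signs changed on omission of one library for Hey1 (−0.11 to 0.71 for butyrate minus control, −0.0094 to 0.59 for pentanoate minus control, −0.49 to 0.33 for pentanoate minus butyrate), Smad7 (−0.087 to 0.27, −0.048 to 0.31 and −0.077 to 0.13 in the same order), Bmpr1a (−0.059 to 0.10) and Smad5 (−0.021 to 0.13) for pentanoate minus butyrate, Myog (−0.94 to 0.20) and Myod1 (−0.18 to 0.041) for pentanoate minus control, and Smad6 (−0.010 to 0.076) and Bmp4 (−0.0016 to 0.14, and −0.0060 with the block and without control library 3) for butyrate minus control. The cause of these changes was not tested. Depth limited Id4, which had 13 counts in all. The replicate block changed no other call among the 6 genes than those given in the report.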
